A study of Homo sapiens with 6 samples.

Results

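Histones are the proteins around which DNA is wound, and their genes were followed here, clustered and variant, on Affymetrix arrays of cells labelled NCI-H929. Members were all probe sets whose symbol in the probe-to-gene annotation was a histone gene by current or older naming, with pseudogenes and antisense RNA dropped. This gave 150 probe sets of 88 histone genes, of 19605 genes with a named probe set. Of these, 70 genes with 114 probe sets belong to the replication-dependent clusters and 18 genes with 36 probe sets were counted as variants. H3-7 was represented only by a probe set shared with H3C13, H3C14 and H3C15, which was counted as clustered. In all, 15 probe sets carried several symbols, 9 of them clustered and 6 variant, and 42 had the suffix s and 34 the suffix x, which mark probes that may match more than 1 transcript. RefSeq lists 96 protein-coding histone genes by the same naming, and the other 8 were not analysed here.

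The study compared a human multiple myeloma line given a lentivirus that lowers PRMT5 (PRMT5_down, 3 arrays, numbered 1 to 3) with the same line given a control lentivirus (control, 3 arrays, numbered 1 to 3). The titles call both viruses sponges, whereas the treatment protocol describes a PRMT5 short hairpin RNA in pLKO.1 made in 293T cells, added with polybrene, followed by puromycin selection; the same protocol calls the comparison cells normal. All cells were collected at 1 time point, and neither the number of clones nor whether the numbered samples were separate cultures is given, so p-values reflect array-to-array spread alone, part of which may be technical. Each array holds total RNA of a whole culture, in which fewer cells in S phase and less histone RNA per cell cannot be told apart.

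Replication-dependent histone genes supply the core histones H2A, H2B, H3 and H4 and the linker histone H1 while DNA is copied. Their mRNAs normally end in a stem-loop bound by SLBP instead of a poly(A) tail, and NPAT and HINFP drive their transcription in S phase, although some of these genes also yield polyadenylated transcripts. Variant histones are mostly made throughout the cell cycle from polyadenylated mRNAs and are placed at particular sites, such as H3.3 in transcribed chromatin and H2A.Z around promoters. PRMT5 is the main enzyme that symmetrically dimethylates arginines, among them arginines in the tails of H2A, H3 and H4. The labels give the standard Affymetrix protocol for biotinylated cRNA without naming the primer; labelling primed on poly(A) captures mRNAs without a tail poorly.

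Signals are on the log2 scale, as RMA gives them, and array medians lay between 5.29 and 5.31. PRMT5 measured 8.63, 9.65 and 9.37 in PRMT5_down 1, 2 and 3, against 9.93, 10.35 and 10.30 in control 1, 2 and 3. The groups did not overlap, and the difference of -0.98 (SE 0.28) left 40.6%, 61.6% and 52.5% of the control signal within numbers 1, 2 and 3. It was not called over all 49293 probe sets (limma adjusted p = 1, and 0.26 with the replicate number as a block). With the block and limma's trend and robust settings, an alternative chosen after seeing the data, PRMT5 was called at an adjusted p of 0.0361. The two-sided exact permutation p over the 6 arrays was 0.1, the smallest that 3 against 3 arrays allow, and the paired one was 0.25, the smallest that 3 pairs allow. The labelled cell type matched its markers only in part. Of 14 plasma cell genes, 7 were above background on no array: IRF4, CD38, TNFRSF17, MZB1, POU2AF1, SLAMF7 and CD27. Another 6 were above it on all 6 arrays: XBP1, NSD2, FGFR3, CD79A, PRDM1 and SDC1. Their mean log2 signals ran from 10.43 for XBP1 to 5.23 for SDC1, with 9.05 for NSD2 and 8.63 for FGFR3. JCHAIN was above background on 5 arrays. Of 15 erythroid genes 9 were measured by a probe set with 1 symbol, and those 9 were above background on all 6 arrays, as were 1 of 4 T cell and 2 of 4 monocyte genes, with mean log2 signals of 13.43 for the embryonic globin HBE1 and 10.19 for GATA1. The cells are therefore called here the RNA labelled NCI-H929. All 9 erythroid genes also had a higher mean in PRMT5_down (median difference 0.25; 0.19, 0.23 and 0.51 within numbers 1, 2 and 3), and the part of this shift in the histone values was not tested.

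The promoters of the histone classes carry different short motifs, and 5 genes to which the values below return, with the variant MACROH2A1, are shown for comparison. RefSeq promoter windows, from 250 bases before to 50 after the gene start on GRCh38.p14, were held for 82 of the 88 genes, and 50 of the 65 clustered windows lie on chromosome 6. Each line gives the 250 bases before the start, 5' to 3' on the gene's strand, with capitals marking, on either strand, TATAAA (the TATA box core), CCAAT (the core of the element bound by NF-Y), ATTTGCAT (the octamer bound by OCT1, the product of POU2F1) and GGTCCG (the core of the H4 element bound by HINFP). H2BC17 is at chr6:27893175-27893424 on the plus strand, H2AC13 at chr6:27807923-27808172 plus, H3C2 at chr6:26032100-26032349 minus, H4C11 at chr6:27823842-27824091 plus, H2AZ1 at chr4:99950276-99950525 minus and MACROH2A1 at chr5:135399232-135399481 minus.
H2BC17: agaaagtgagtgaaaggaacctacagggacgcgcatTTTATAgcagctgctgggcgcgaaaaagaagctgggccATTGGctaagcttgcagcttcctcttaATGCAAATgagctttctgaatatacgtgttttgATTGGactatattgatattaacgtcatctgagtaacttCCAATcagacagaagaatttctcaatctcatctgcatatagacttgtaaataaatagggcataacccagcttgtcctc
H2AC13: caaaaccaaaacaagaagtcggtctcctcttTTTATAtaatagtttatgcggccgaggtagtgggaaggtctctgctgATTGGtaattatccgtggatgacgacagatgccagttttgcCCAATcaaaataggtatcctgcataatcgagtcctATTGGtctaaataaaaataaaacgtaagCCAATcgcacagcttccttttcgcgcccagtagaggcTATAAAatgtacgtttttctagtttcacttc
H3C2: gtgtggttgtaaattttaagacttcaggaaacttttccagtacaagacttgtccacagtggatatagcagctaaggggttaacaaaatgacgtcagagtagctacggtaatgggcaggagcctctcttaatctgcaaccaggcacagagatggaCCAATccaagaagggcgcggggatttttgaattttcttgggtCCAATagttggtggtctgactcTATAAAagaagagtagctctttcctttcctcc
H4C11: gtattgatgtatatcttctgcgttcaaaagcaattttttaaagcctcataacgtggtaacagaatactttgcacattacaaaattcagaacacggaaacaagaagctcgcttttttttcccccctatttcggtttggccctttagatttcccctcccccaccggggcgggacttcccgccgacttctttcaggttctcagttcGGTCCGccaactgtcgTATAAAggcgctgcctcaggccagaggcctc
H2AZ1: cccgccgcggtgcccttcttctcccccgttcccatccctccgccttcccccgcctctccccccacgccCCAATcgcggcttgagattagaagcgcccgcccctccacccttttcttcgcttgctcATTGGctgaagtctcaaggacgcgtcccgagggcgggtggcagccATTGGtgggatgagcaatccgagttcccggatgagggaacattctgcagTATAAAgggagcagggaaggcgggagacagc
MACROH2A1: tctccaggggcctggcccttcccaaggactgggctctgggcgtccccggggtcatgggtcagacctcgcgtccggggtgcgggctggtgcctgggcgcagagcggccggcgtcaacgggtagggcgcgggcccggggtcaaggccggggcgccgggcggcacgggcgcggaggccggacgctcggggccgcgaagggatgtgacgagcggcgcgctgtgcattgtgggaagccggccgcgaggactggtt

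Counted over the whole 300-base windows, TATAAA stood in 66.2% of the 65 clustered promoters and 35.3% of the 17 variant promoters, against 12% of all 27305 promoters. CCAAT stood in 84.6% of clustered and 82.4% of variant promoters, against 35.7% of all. The octamer stood in 11 of 16 clustered H2A and 14 of 18 clustered H2B promoters, in 1 of 12 H3 promoters and in 0 of 6 H1 and 0 of 13 H4 promoters, against 1.8% of all promoters. Among variants it stood in 1 of 17 promoters, that of H3-3B. Many of the H2A and H2B matches are 1 octamer seen from both genes of a pair with overlapping windows, as for H2AC17 and H2BC17. Those counts are therefore not of separate promoters. The match among clustered H3 promoters is that of H3C4, whose window is the same stretch as the window of H2AC7, so it is not a separate promoter. GGTCCG stood in 12 of 13 H4 promoters, in 1 promoter each of clustered H2A, H2B and H3 and in 0 of 6 H1 promoters, against 11.2% of all. The H2A and H2B cases, H2AC20 and H2BC21, have overlapping windows. These matches describe letters in the windows and not binding, and the motifs do not overlap in the lines above. In the line of MACROH2A1 none of the 4 motifs occurs. H2A and H2B genes often share a promoter region: 11 pairs start on opposite strands within 248 bases of each other, so that H2BC17 and H2AC17, with starts 240 bases apart, have windows that overlap.

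A probe set was taken as above background on an array when it exceeded the 95th percentile of 330 olfactory receptor genes there, which lay between 4.90 and 5.02. On all 6 arrays 77 of 150 histone probe sets passed (51.3%, against 50.5% of all probe sets), 54 of 114 clustered and 23 of 36 variant, and 60 passed on no array. By gene, 41 of 70 clustered histones had a probe set above background on all 6 arrays: 3 of 6 H1 genes, 11 of 17 H2A, 10 of 18 H2B, 9 of 14 H3 and 8 of 15 H4. Among the 18 variants 9 did: H1-10, H2AX, H2AZ1, H2AZ2, H3-3B and MACROH2A1, and H3-3A, H3-5 and H3-7 through shared probe sets alone. MACROH2A2, H2AJ, the oocyte linker histone H1-8, H2AP and the testis histone H2BW1 were below background on every array. Taking the mean over the 6 arrays against the mean background of 4.96 left 61 clustered and 24 variant probe sets, called expressed below.

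No histone probe set was called between PRMT5_down and control. Limma called 0 of 150 at an adjusted p under 0.05, adjusted over all probe sets, as it called 0% of all 49293, and with the replicate number as a block it again called 0 of 150 and 0% of all. At an unadjusted p under 0.05 in limma without the block, 0 clustered and 0 variant probe sets were higher, against 0.475% of all, and 0 clustered and 1 variant probe set, of H3-3B, were lower, against 0.471% of all. With the block 18 of 114 clustered probe sets (15.8%) and 0 of 36 variant probe sets were higher at that unadjusted p in limma, against 5.08% of all probe sets. In the other direction 2 clustered (1.75%) and 3 variant probe sets (8.33%) were lower, against 3.48% of all. Several of the 18 belong to the same gene, among them all 3 probe sets of H2AC13 and all 3 of H2BC5. Over expressed probe sets with the block, 13 of 61 clustered (21.3%) and 0 of 24 variant ones were higher, against 7.4% of all expressed. There 1 clustered (1.64%) and 3 variant ones (12.5%) were lower, against 4.16% of all expressed. Between non-overlapping groups, 0 of the 150 were higher, against 1.49% of all, whereas 1 clustered probe set, of H2BC14 and below background, and 3 variant probe sets, 1 of H3-3B and 2 of MACROH2A1, were lower, against 2.43% of all. Within all 3 numbers 22 clustered (19.3%) and 5 variant (13.9%) probe sets were higher, against 12.5% of all, and 7 clustered (6.14%) and 9 variant (25%) were lower, against 14.3% of all.

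Linker histones bind the DNA that enters and leaves the nucleosome. H1-2, a common somatic linker histone, measured 12.07, 11.99 and 11.69 in PRMT5_down 1, 2 and 3, against 11.63, 11.92 and 11.61 in control 1, 2 and 3. Numbers 1 and 2 were high in PRMT5_down and number 2 in control, and the groups overlapped (difference 0.20, SE 0.14, limma adjusted p = 1). The somatic linker histones H1-3 and H1-4, nearer to background, differed by 0.07 (SE 0.10) and -0.12 (SE 0.13). H1-4 was 0.48 lower within number 3 and 0.11 higher within number 1, and its groups overlapped.

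Among H2A genes, the probe set shared by H2AC18 and H2AC19, a pair of near-identical genes whose signals cannot be separated, measured 12.34, 12.43 and 11.99 in PRMT5_down, against 11.72, 12.37 and 11.47 in control. Control 2 reached the PRMT5_down values and the other 2 controls did not (difference 0.40, SE 0.25). With the replicate number as a block, limma gave this probe set an unadjusted p of 0.0095 and an adjusted p of 0.50. H2AC13 gave 7.20, 7.03 and 6.49 in PRMT5_down, against 6.42, 6.97 and 6.23 in control on its brighter probe set. Again control 2 was high and the groups overlapped (difference 0.37, SE 0.26), and its other expressed probe set differed by 0.36 (SE 0.24). With the block, limma gave the brighter one an unadjusted p of 0.026 and an adjusted p of 0.55. The 2 expressed probe sets of H2AC11 differed by 0.36 and 0.32, chosen for mention after their values were seen, with 1.01 and 0.74 within number 1. The 16 expressed H2A probe sets had a median difference of 0.25, with 13 higher and 3 lower.

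H2BC12 measured 12.28, 12.45 and 12.45 in PRMT5_down, against 12.31, 12.43 and 12.40 in control on its brightest probe set, so the groups overlapped across a narrow range (difference 0.01, SE 0.09). H2BC17, whose promoter holds the octamer, gave 7.03, 6.81 and 5.97 in PRMT5_down, against 6.05, 6.77 and 5.69 in control. PRMT5_down 1 stood 0.98 above control 1, number 2 differed by 0.04 and number 3 by 0.28, and the groups overlapped (difference 0.43, SE 0.37). With the block, limma gave H2BC17 an unadjusted p of 0.029 and an adjusted p of 0.55. H2BC5 gave 9.94, 10.79 and 10.56 in PRMT5_down, against 9.66, 10.79 and 10.10 in control. Both arrays numbered 2 were equal and the highest of their group (difference 0.25, SE 0.34). H2BC11 went the other way, with 7.89, 8.30 and 7.81 in PRMT5_down, against 8.08, 8.50 and 8.08 in control. It was lower within each number, although the groups overlapped through number 2 (difference -0.22, SE 0.18). With the block, limma gave this H2BC11 probe set an unadjusted p of 0.026 and an adjusted p of 0.55. H2AC11, which starts 248 bases from H2BC11 on the opposite strand, differed by 0.74, 0.17 and 0.05 within numbers 1, 2 and 3 on its brightest probe set, against -0.19, -0.20 and -0.27 for H2BC11. In that pair the genes went opposite ways on these probe sets. For H2AC15 and H2BC15, with starts 194 bases apart, the brightest probe sets gave 0.23, -0.11 and -0.25, and 0.18, -0.16 and -0.24. The H2AC15 one, however, exceeded background on only 4 arrays. Another H2AC15 probe set, which exceeded it on 6, gave 0.42, 0.1 and 0.19, opposite to H2BC15 in numbers 2 and 3. The dimmest H2AC15 probe set, never above background, gave -0.25, -0.21 and -0.22. Whether this pair moved together thus depended on the probe set. These pairs do not stand for all 11. Within number 1, H2AC8 and H2BC8 differed by 0.78 and 0.28, and H2AC17 and H2BC17 by 0.51 and 0.98. H2AC7 and H2BC7 differed there by 0.21 and 0.39, and H2AC6 and H2BC4 by 0.19 and 0.58. H2AC20 and H2BC21 went opposite ways there, at -0.16 and 0.20. Within number 3, H2AC8 and H2BC8 gave -0.08 and 0.34, and H2AC17 and H2BC17 gave -0.33 and 0.28. The 19 expressed H2B probe sets had a median difference of 0.15.

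For H3 genes, H3C2 measured 7.35, 7.38 and 6.74 in PRMT5_down, against 6.43, 7.34 and 6.28 in control. PRMT5_down 1 stood 0.92 above control 1, while the arrays numbered 2 differed by 0.04 and the groups overlapped (difference 0.47, SE 0.32, limma adjusted p = 1; unadjusted p = 0.014 with the block). H3C10 gave 9.91, 9.80 and 9.37 in PRMT5_down, against 9.19, 9.73 and 9.16 in control, with control 2 inside the PRMT5_down range (difference 0.33, SE 0.21). The 8 expressed H3 probe sets had a median difference of 0.14.

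For H4 genes, nearly all of which encode the same protein, the probe set shared by H4C11 and H4C12 measured 8.97, 8.45 and 8.32 in PRMT5_down, against 7.93, 8.40 and 8.09 in control. The gap was 1.04 within number 1, 0.05 within number 2 and 0.23 within number 3, and the groups overlapped (difference 0.44, SE 0.21, limma unadjusted p = 0.078). Probe sets annotated to H4C12 alone differed by 0.05 and 0.09. H4C3 gave 12.95, 12.56 and 12.61 in PRMT5_down, against 12.85, 12.48 and 12.80 in control, and its number 1 was the highest in both groups. The shared probe set of H4C14 and H4C15 differed by 0.13 (SE 0.23) and that of H4C8 by 0.14 (SE 0.17), both with overlapping groups. The 13 expressed H4 probe sets had a median difference of 0.09.

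**Figure D1:**
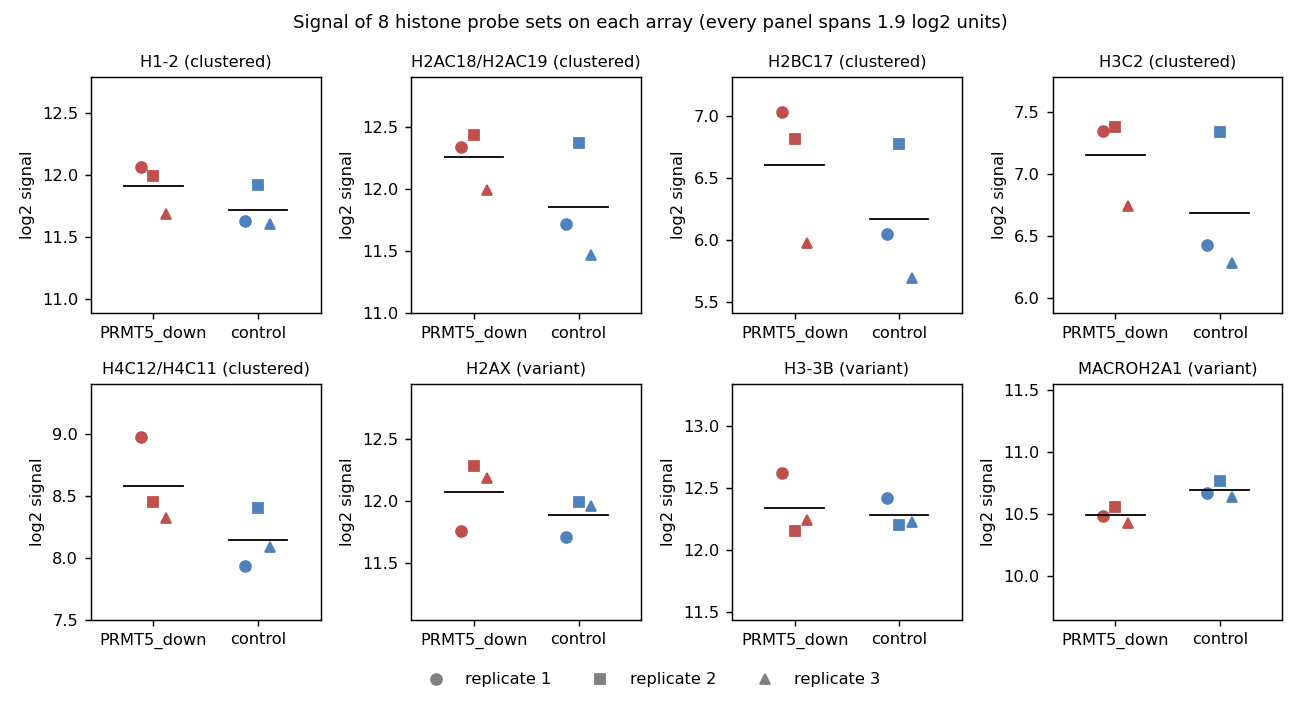
Log2 signal (vertical axis, each panel spanning the same length of scale) of 8 histone probe sets on each array, with PRMT5_down on the left and control on the right of each panel, symbols for replicate numbers 1, 2 and 3 and black lines for group means. In each of the 5 clustered panels control 2 lies inside the range of the PRMT5_down points, and in the MACROH2A1 panel the PRMT5_down points (10.43 to 10.56) lie below the control points (10.64 to 10.77).

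The clustered histones followed the replicate number more than the lentivirus. Over the 61 expressed clustered probe sets, the median signal relative to each probe set's mean was 0.05, 0.38 and -0.24 in PRMT5_down 1, 2 and 3, against -0.28, 0.42 and -0.23 in control 1, 2 and 3. Number 2 was thus high in both groups, and the arrays numbered 1 differed from each other most. Control 2 was the highest control in 52 of the 61 probe sets, and PRMT5_down 2 the highest of its group in 41, with PRMT5_down 1 the highest in 17. The replicate number held a median of 84.4% of the sum of squares of an expressed clustered probe set and the group 4.99%. Those shares were 81.8% and 5.17% over all 26894 expressed probe sets, so a large share for the number was common to the arrays. The spread itself was wider in clustered histones: the median SD over the 6 arrays was 0.39, against 0.13 for the 24 expressed variants and 0.24 for all expressed probe sets. No chance test was made of these descriptions.

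The classes were not alike in this pattern. In H2B, number 2 exceeded the mean of the other 2 numbers by a median of 0.74 and was the highest control in 19 of 19 probe sets and the highest PRMT5_down array in 18 of 19. In H2A the same excess was 0.67, in H3 0.32 and in H4 0.11. In H4 the excess of number 1 over the others was as large, at 0.135. The widest cases, chosen after their values were seen, were H2BC7, with 6.45, 7.76 and 6.06 in PRMT5_down, against 6.06, 7.79 and 5.94 in control, and H2AC17, with 7.87, 8.96 and 7.51 in PRMT5_down, against 7.36, 8.86 and 7.84 in control. In both genes number 2 was the highest of its group by more than 1 log2 unit, whereas the 2 arrays numbered 2 differed from each other by -0.03 and 0.10. H4C5 also had its highest value in number 2, at 6.88, 7.87 and 6.92 in PRMT5_down, against 6.79, 8.05 and 6.79 in control. The brightest probe sets of H2BC12, H4C3 and H4C8 did not show it: their number 2 differed from the others by 0.08, -0.28 and -0.30. The probe sets of H2BC12 disagreed, since a dimmer one gave 5.20, 6.58 and 5.45 in PRMT5_down, against 5.34, 6.69 and 5.66 in control, with an excess of 1.22 for number 2. The expressed variants had their highest median in number 1 of both groups, 0.12 in PRMT5_down 1 and 0.11 in control 1, with the remaining arrays between -0.05 and -0.03.

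**Figure D2:**
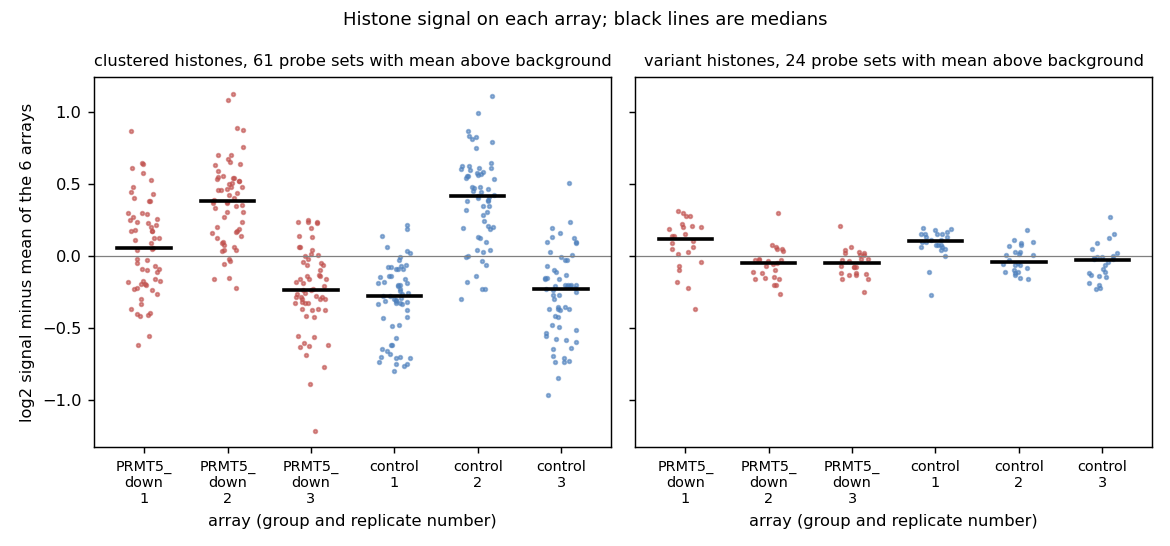
Log2 signal minus the probe set's own mean over the 6 arrays (vertical axis) for the 61 expressed clustered and 24 expressed variant histone probe sets, on each PRMT5_down and control array (horizontal axis), with points for probe sets and black lines for medians. Clustered medians reach 0.38 in PRMT5_down 2 and 0.42 in control 2, while variant medians stay between -0.05 and 0.12.

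Clustered genes were then set against variants within each replicate number. Over all 114 clustered probe sets the median of PRMT5_down minus control was 0.19, 0.00 and 0.005 in numbers 1, 2 and 3, with 87, 54 and 57 of them higher, and over the 36 variant probe sets it was -0.005, -0.03 and -0.005. The same medians over all probe sets were -0.02, 0 and 0. The clustered median exceeded the variant median by 0.195 in number 1, by 0.03 in number 2 and by 0.01 in number 3. Among expressed probe sets the excess was 0.285, 0.03 and 0.02, made of clustered medians of 0.30, 0.01 and 0.05 and variant medians of 0.015, -0.02 and 0.03. In number 1, 22 of the 61 expressed clustered probe sets were higher by at least 0.5, or 36.1%, against 3.27% of all expressed probe sets and 0 of the 24 variants. In number 2 this held for 0 of 61, against 0.21% of all expressed probe sets. In number 3 it held for 2 of 61, or 3.28%, against 4.68% of all expressed.

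Averaged over the 3 numbers, the clustered median was 0.07, with 74 probe sets higher and 39 lower, and 0.13 over the expressed ones, with 48 higher and 13 lower. Over all members the variant median was -0.007, with 18 higher and 18 lower, and the median of all probe sets was -0.01. The difference between the clustered and variant medians was 0.08, less than the SD of 0.10 between the 3 numbers, and it was 0.005 when number 1 was left out, an alternative chosen after seeing the data. Without control 1 it was -0.05 and without PRMT5_down 2 it was -0.02, whereas without control 2 it was 0.23. Omitting a single array left the numbers unbalanced between the groups, so spread between numbers entered these values. The arrays of number 1 also stood lower than those of number 2 in clustered signal in both groups, as given above. By class the expressed medians in numbers 1, 2 and 3 were 0.565, 0.065 and -0.02 for H2A, 0.28, -0.06 and 0.13 for H2B, 0.42, 0.035 and 0.115 for H3, and 0.18, -0.04 and -0.01 for H4, so each of these classes had its highest median in number 1.

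**Figure D3:**
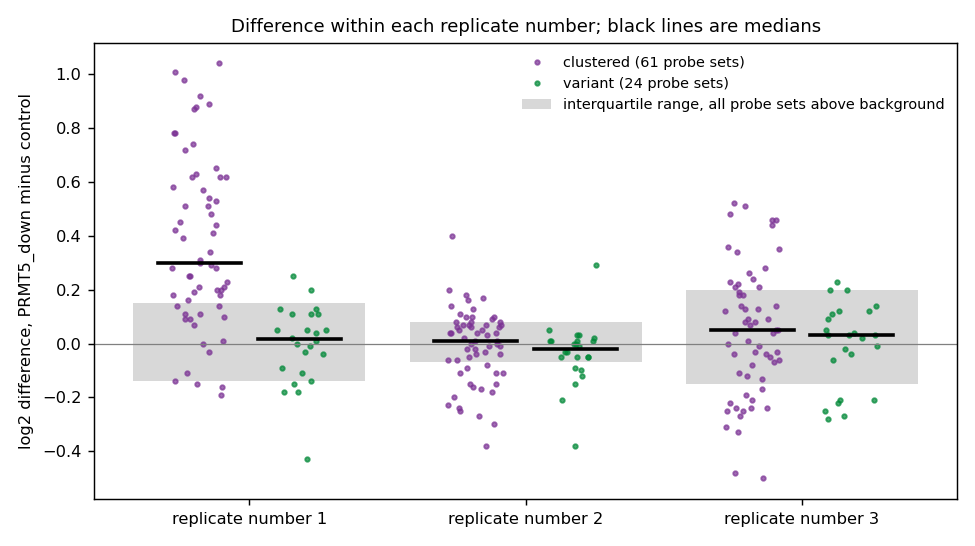
PRMT5_down minus control in log2 units (vertical axis) within replicate numbers 1, 2 and 3 for expressed clustered and variant histone probe sets, with black lines for medians and grey bands for the interquartile range of all expressed probe sets. Clustered points extend upward in number 1 (median 0.30) and centre near 0 in numbers 2 and 3 (medians 0.01 and 0.05).

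The variants each have a role of their own. MACROH2A1 encodes an H2A with a large macrodomain at its end that is enriched in repressed chromatin. It measured 10.49, 10.56 and 10.43 in PRMT5_down, against 10.67, 10.77 and 10.64 in control. Every PRMT5_down value was below every control value, with differences of -0.18, -0.21 and -0.21 within numbers 1, 2 and 3. The difference of -0.20 (SE 0.08) was not called (limma adjusted p = 1, unadjusted p = 0.054; adjusted p = 0.57 with the block). Its other 2 expressed probe sets differed by -0.15, with groups that did not overlap, and by -0.11, with overlapping groups.

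H3.3 is encoded by H3-3A and H3-3B and is deposited outside replication by HIRA and by DAXX with ATRX. The brightest H3-3B probe set gave 12.62, 12.15 and 12.24 in PRMT5_down, against 12.42, 12.20 and 12.22 in control, with overlapping groups (difference 0.06, SE 0.15). A dimmer H3-3B probe set gave 7.94, 7.66 and 7.80 in PRMT5_down, against 8.08, 8.04 and 8.05 in control. There the groups did not overlap (difference -0.26, SE 0.10, limma adjusted p = 1), so the probe sets of this gene disagree. H3-3A was measured above background only by probe sets shared with the pseudogene H3P6, of which the brightest gave 13.06, 12.83 and 12.78 in PRMT5_down, against 13.01, 12.80 and 12.66 in control, with overlapping groups (difference 0.07, SE 0.13).

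H2AX, which is phosphorylated around DNA breaks and whose mRNA can end in either a stem-loop or a poly(A) tail, gave 11.76, 12.28 and 12.19 in PRMT5_down, against 11.71, 11.99 and 11.96 in control. Number 1 was the lowest in both groups, and the groups overlapped (difference 0.19, SE 0.16). H2AZ1, one of the genes for H2A.Z, gave 12.97, 12.67 and 12.87 in PRMT5_down, against 12.96, 12.70 and 12.82 in control. H2AZ2, the other, gave 11.75, 11.33 and 11.33 in PRMT5_down, against 11.64, 11.33 and 11.34 in control. Both overlapped almost wholly, with differences of 0.01 (SE 0.12) and 0.03 (SE 0.16). H1-10, a linker histone made outside S phase, gave 10.28, 10.54 and 10.33 in PRMT5_down, against 10.46, 10.53 and 10.61 in control, with overlapping groups (difference -0.15, SE 0.10). The testis linker histone H1-7 lay near background and differed by -0.23 (SE 0.14).

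The genes that make and handle histones gave no call either, and limma's adjusted p was 1 for each one named here. Of 22 genes of histone transcription and mRNA processing 21 were measured, with 12 higher, 9 lower, 0 called and a median difference of 0.007, beside 0.007 over all expressed probe sets. NPAT, the coactivator of histone transcription, gave 8.74, 8.19 and 8.10 in PRMT5_down, against 8.26, 8.10 and 7.92 in control, with overlapping groups (difference 0.25, SE 0.19). SLBP, which binds the stem-loop, gave 10.17, 10.51 and 10.22 in PRMT5_down, against 9.93, 10.40 and 9.97 in control. SLBP was higher within each number, number 2 was the highest in both groups, and the groups overlapped (difference 0.20, SE 0.17). HINFP differed by 0.12 (SE 0.09) and CPSF1, a subunit of the cleavage and polyadenylation specificity factor, by -0.24 (SE 0.23). With the block 4 of the 21 were higher and 0 lower at an unadjusted p under 0.05 in limma, against 5.08% and 3.48% of all probe sets. Those shares were 7.4% and 4.16% over expressed probe sets, and all 21 genes were above background on all 6 arrays. The 4 were NPAT, SLBP and, outside the naming rule, CPSF2 and CCNE2, with differences of 0.33 and 0.37.

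Of 28 histone chaperones and exchange factors, which carry histones to and from DNA, 15 were higher, 13 lower and 0 called, with a median of 0.01. ASF1B differed by -0.15 (SE 0.12), SET by 0.10 (SE 0.10), the importin IPO4 by -0.26 (SE 0.24) and TONSL by -0.21 (SE 0.18), all with overlapping groups. Leaving out 1 array moved these differences widely, for ASF1B between -0.227 and -0.0417, for SET between 0.0333 and 0.173, for IPO4 between -0.418 and -0.0567 and for TONSL between -0.355 and -0.025. Each omission left the replicate numbers unbalanced between the groups, so spread between numbers entered these ranges. Of 25 S phase genes 24 were measured, with 12 higher, 12 lower, 0 called and a median of 0.00, and MCM3 and PRIM1 differed by -0.12 (SE 0.08) and -0.19 (SE 0.14). Within numbers 1, 2 and 3 the S phase medians were 0.01, 0.01 and 0.00, beside 0.30, 0.01 and 0.05 for expressed clustered histones. The S phase list was highest in number 1 of both groups, with centred medians of 0.17 in PRMT5_down 1 and 0.20 in control 1, against -0.10 in PRMT5_down 2 and -0.08 in control 2. Over the 61 expressed clustered probe sets, the arrays with the highest signal were therefore not those with the highest S phase signal. This did not hold for each class. In PRMT5_down, expressed H4 was highest in number 1 (0.23, against 0.09 in number 2), as was expressed H1 (0.12, against 0.11). In control, H4 was highest in number 2 (0.185, against -0.18 in number 1). Of 11 genes of non-dividing or differentiating cells 9 were measured, with 6 higher, 3 lower, 0 called and a median of 0.06, and the inhibitor CDKN1B and the cyclin CCNG2 differed by -0.15 (SE 0.15) and -0.14 (SE 0.09).

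**Figure D4:**
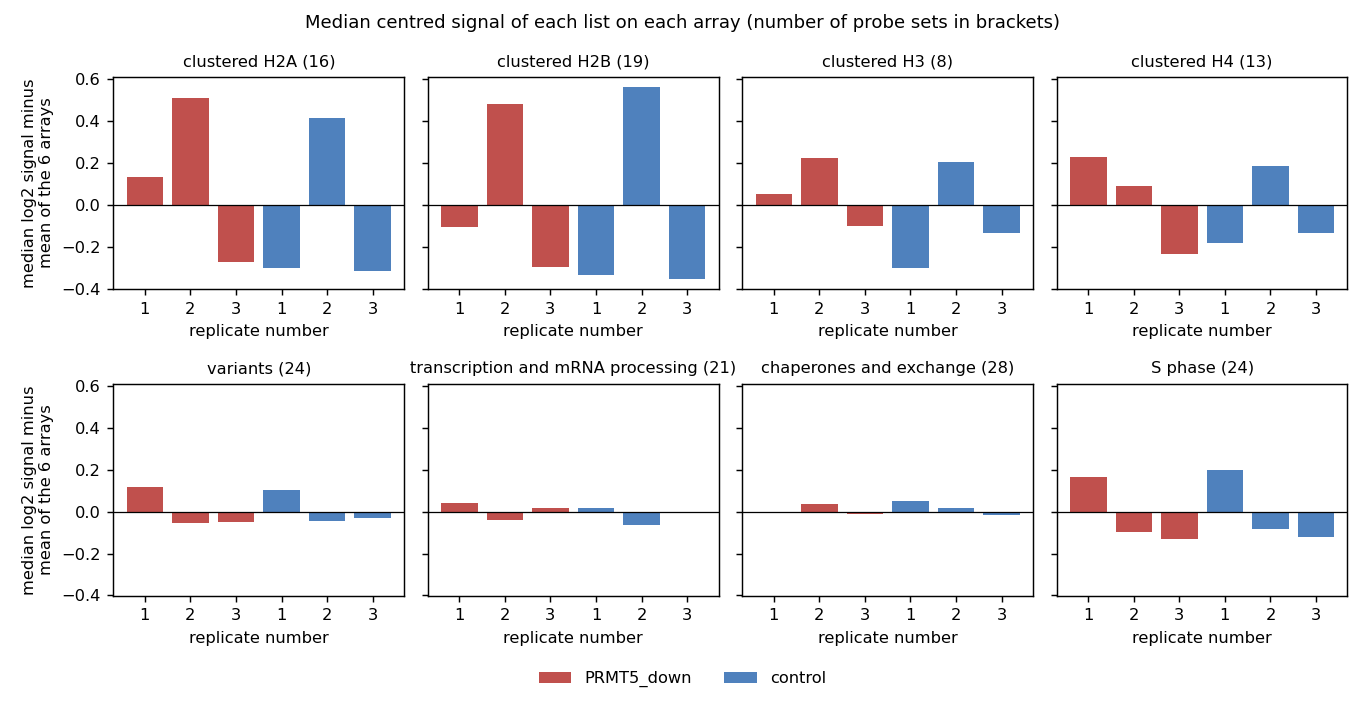
Median log2 signal minus each probe set's mean over the 6 arrays (vertical axis) for histone classes and lists of related genes, by replicate number, with PRMT5_down bars on the left and control bars on the right. Clustered H2A and H2B are highest in number 2 of both groups (0.51 and 0.48 in PRMT5_down 2, against 0.42 and 0.57 in control 2), whereas the S phase list is highest in number 1.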

How the data were processed

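The deposited table holds log2 signals per probe set that the authors made with RMA, per the submitters' processing notes. No version or chip definition is given in the sources used here. Since RMA makes the distributions of the arrays alike, it would hide a change common to most probe sets. Values have 2 decimals and were used as deposited. Of 49372 probe sets 79 controls were left out; 44988 had 1 gene symbol, 1832 several and 2473 none here. Symbols came from the platform annotation and RefSeq. With 3 arrays a group, the number of arrays limits the precision.

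PRMT5_down was compared with control by limma 3.58.1 (lmFit and eBayes, R 4.3.3) on all 49293 probe sets, without a block, calling probe sets at a Benjamini-Hochberg adjusted p under 0.05. The fit was tested on simulated data. The spread between replicate numbers was set alike for every probe set there, so the wider spread of clustered histones was not covered. Tables were made in Python 3.11.15 with pandas 2.3.3 and numpy 2.4.6. Lists were described by counts and medians, with no test. Other list genes were each represented by their brightest probe set with 1 symbol.

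Same-numbered arrays deviated together from their group means (r = 0.806, 0.705 and 0.778), and differently numbered ones did not (r between -0.547 and -0.165). Deviations from the mean of 3 arrays add up to 0, so the negative values follow from the positive ones and add no separate evidence for the pairing. All 3 same-number correlations exceed the minimum of 0.1, so differences within numbers and a fit with the number as a block are also given. The main fit was not paired. Every SE given for a gene comes from it and includes spread between replicate numbers, as for H2BC5 with 0.34, against 0.10 with the block. The pairing rests on the same-number correlations, and what a number stands for is unstated in the labels.

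The members and lists were chosen with earlier results of these data known. Named genes were PRMT5, the brightest clustered probe set and the 3 with the smallest p in each class among those above background on all arrays, every variant by its brightest probe set with 1 symbol where it has one, and list genes with the smallest p. Alternatives were the replicate block, quantile normalization again, leaving out the dimmest 50%, each array left out, trend and robust settings, 1 probe set per gene, probe sets with 1 symbol, expressed probe sets, means for medians and the 90th percentile as background.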

Additional observations from a re-analysis of the deposited data

How the results depend on the processing

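Limma called 0 histone probe sets under every alternative run. Over all probe sets it called 0 under each planned one, the replicate block included, and 6 with the replicate block, trend and robust settings together, an alternative chosen after seeing the data; those 6 were 2 probe sets of PRG2 and 1 each of AHSP, TMPRSS4, PRMT5 and FOSL2. At an unadjusted p under 0.05 the fit without the block held 234 higher and 232 lower probe sets and the replicate block 2504 and 1717; the block left the PRMT5 difference at -0.98. PRMT5 stayed between -1.19 and -0.683 with each array left out. The clustered median lay between -0.0192 and 0.175 with each array left out, the variant median between -0.07 and 0.0275, and their difference between -0.0467 and 0.225; the cause was not tested. The variant median, -0.007 as reported, was 0.0149 after quantile normalization again, 0.0333 without the dimmest 50% of probe sets, 0.0267 over expressed ones, -0.0267 with 1 probe set per gene or with 1 symbol, -0.0334 as a mean and -0.0367 without shared suffixes (the last chosen after seeing the data). The histone probe sets above background on all arrays numbered 83 at the 90th percentile. Of 43 named features other than PRMT5, 11 turned sign under some alternative and 0 were called. Single arrays were left out of the fit without the block, which left the replicate numbers unbalanced between the groups. Ranges with 1 array left out therefore include spread between numbers. H2BC5 was -0.015 without control 1, although it differed by 0.28, 0.00 and 0.46 within numbers 1, 2 and 3. The clustered median, 0.07 as reported, was 0.137 without the dimmest 50% and 0.13 over expressed probe sets. After quantile normalization again H4C3 was 0.00361, H2AJ 0.00444 and H2AP 0.005. With 1 array left out, H2BC12 lay between -0.0217 and 0.07, H2BC5 between -0.015 and 0.55, H4C3 between -0.125 and 0.07, H4C14/H4C15 between -0.102 and 0.348, H2AP between -0.0983 and 0.0417, H2AZ1 between -0.0567 and 0.0933, H2AZ2 between -0.107 and 0.135, H3-3A (its probe set with 1 symbol) between -0.0683 and 0.00167, H3-3B between -0.085 and 0.15 and MACROH2A2 between -0.06 and 0.035. The 3 arrays a group and the spread between replicate numbers limit what could be called.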

Other observations

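Probe sets annotated to histone pseudogenes or antisense RNA were left out of every comparison. That of the pseudogene H1-9P measured 4.90, 4.82 and 5.04 in PRMT5_down, against 5.10, 5.04 and 5.06 in control (difference -0.15). That of the pseudogene H2BC20P measured 4.88, 5.13 and 4.64 in PRMT5_down, against 4.86, 5.18 and 4.34 in control (difference 0.09). The number 2 array was the highest of its group for H2BC20P, as for most expressed H2B probe sets, although H2BC20P was above background on only 2 of the 6 arrays. H1-10-AS1, an RNA antisense to H1-10, was below background on all 6 arrays and differed by -0.16.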
